A study of Homo sapiens with 12 samples.

Results

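The axonemal dynein heavy chains are the motor subunits that bend motile cilia and sperm flagella. The family is described here in HEK293 cells, a human embryonic kidney line, through 10 genes (DNAH1, DNAH2, DNAH5, DNAH6, DNAH7, DNAH8, DNAH10, DNAH11, DNAH14 and DNAH17) out of 38927 gene entries in the deposited tables. The genes were selected by name, with earlier results of these data known. DNAH17 is taken to have been picked from its rise in experiment 1, and DNAH14 from the abundance of its circular RNA in experiment 1. How far experiment 2 entered the choice is not stated, so p-values of members there may not be free of selection. Their circular RNAs (circRNAs) numbered 111 of 29693 listed in experiment 1 and 75 of 26796 in experiment 2.

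Total RNA of 12 libraries was sequenced in 2 experiments, with 3 libraries in each of 4 groups. The question is what RBFOX1, a splicing factor that binds RNA near alternative exons, does to gene and circRNA levels. In experiment 1, induced cells were cells of a Flp-In T-REx line that carries a tagged Rbfox1 transgene (mFox1 in the line's name) under an inducible promoter, treated with doxycycline, and uninduced cells were the same line without treatment. In experiment 2, induced cells were again doxycycline-treated cells of that line, and parental cells were HEK293 cells given doxycycline. The inducible line came from a clone deficient in RBFOX2, a relative of RBFOX1, so both groups of experiment 1 and the induced group of experiment 2 share that background and the parental cells do not. The labels give 0.5 µg/ml doxycycline for 2 weeks in a text that stands with every sample, and the same dose and time are assumed for the parental cells. In experiment 1 the drug and the transgene cannot be told apart, and in experiment 2 the transgene, the RBFOX2 background and descent from 1 clone cannot be told apart. The labels do not say that the replicates were separate cultures, and each p-value therefore reflects sample-to-sample spread that could be technical alone.

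Gene reads per library numbered 34025315 to 55298749, with 10004 to 28691 back-splice reads, which span the junction that closes a circle. RBFOX1 averaged 39.2 ± 0.394 CPM (reads scaled to the effective library size) in induced and 3.77 ± 0.584 CPM in uninduced cells of experiment 1, and 40.2 ± 0.704 CPM in induced and 0 CPM in parental cells of experiment 2 (SD, n = 3 each). RBFOX2 averaged 53.7 ± 2.78 CPM in induced and 53.7 ± 3.90 CPM in uninduced cells, against 50.8 ± 4.76 CPM in induced and 183 ± 0.0715 CPM in parental cells of experiment 2. MT-RNR2, a ribosomal RNA of mitochondria, accounted for 21.7 to 24.1% of reads in experiment 1 and 0.0286 to 0.0638% in experiment 2, so levels set across experiments also carry that difference in the libraries. Of 6 markers of the HEK293 line, 5 had reads, led by vimentin (VIM), and NEFL had no row. The 11 markers of motile ciliated cells summed to 10.1 to 11.4 CPM in induced and 11.7 to 12.9 CPM in uninduced cells, and to 10.1 to 11.8 CPM in induced and 15.9 to 17.0 CPM in parental cells, with CCDC40 the highest of them in every group. The part of these markers in the results below was not tested. The ciliary master regulator FOXJ1 had 11 reads over the induced and 2 over the uninduced libraries, and 23 over the induced and 16 over the parental ones. Of 8 male germ cell markers, 3 had a row in each experiment, and TNP1, PRM1, PRM2 and ODF1 had none in either. Those with a row summed to 1.67 to 2.02 CPM in induced and 1.69 to 1.72 CPM in uninduced cells, and to 1.78 to 1.85 CPM in induced and 1.79 to 2.17 CPM in parental cells, led by TSSK6.

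Axonemal dyneins sit in outer and inner arms along the microtubule doublets of motile cilia, where their heavy chains hydrolyse ATP and slide one doublet against the next. The heavy chains are paired with smaller intermediate and light chains, are assembled in the cytoplasm by dedicated factors, and are usually switched on together by FOXJ1 and RFX factors in cells that build motile cilia. A circRNA forms when the end of an exon is spliced to the start of an earlier exon, and because it has no ends it usually lasts longer than linear RNA.

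RFX factors bind the X-box, whose half-site is GTTGCC, searched on both strands. Only exact matches were counted, so a site that differs in any letter counts as none here. Among windows of 300 bases from 250 before to 50 after the gene start in RefSeq (build GRCh38.p14), 9 of the 10 members had an entry (DNAH17 had none in the table), with 11 windows in all. A half-site stood in windows of 4 of the 9 members, DNAH1, DNAH2, DNAH6 and DNAH10, against 14.6% of 27305 gene symbols. By window it was 5 of 11, against 12.2% of 35116, but the 2 windows of DNAH10 overlap and hold the same site. In the DNAH1 window, the half-site and its reverse complement stood 2 bases apart, the arrangement of a full X-box. Such a pair with a gap of 0 to 3 bases, a limit set after this window was seen, stood in 0.165% of all windows and in 1 member. The 250 bases before the gene start are shown for DNAH1 and DNAH6, which held half-sites and were called higher in experiment 2, and for DNAH14, which held none and gave the abundant circles. DNAH2 and DNAH10 also held half-sites and were not called, while DNAH7, DNAH11 and DNAH14 held none and were called higher. No link between half-sites and calls is read from these windows. The printed sequences of DNAH1, DNAH6 and DNAH14 lie at chr3:52316069-52316318, chr2:84516248-84516497 and chr1:224929404-224929653, all on the plus strand, and capitals mark the half-sites on either strand. These letters are a description of the windows, and binding was not measured.
DNAH1: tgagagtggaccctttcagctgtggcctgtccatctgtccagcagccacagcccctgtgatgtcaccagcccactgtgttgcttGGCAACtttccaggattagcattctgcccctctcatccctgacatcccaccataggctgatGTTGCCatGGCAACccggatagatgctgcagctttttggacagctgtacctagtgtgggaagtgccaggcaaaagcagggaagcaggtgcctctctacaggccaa
DNAH6: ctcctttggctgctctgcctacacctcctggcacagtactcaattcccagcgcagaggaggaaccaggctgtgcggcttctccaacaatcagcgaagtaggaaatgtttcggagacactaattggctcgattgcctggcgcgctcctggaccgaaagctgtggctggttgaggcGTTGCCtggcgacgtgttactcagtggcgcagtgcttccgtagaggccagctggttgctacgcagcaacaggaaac
DNAH14: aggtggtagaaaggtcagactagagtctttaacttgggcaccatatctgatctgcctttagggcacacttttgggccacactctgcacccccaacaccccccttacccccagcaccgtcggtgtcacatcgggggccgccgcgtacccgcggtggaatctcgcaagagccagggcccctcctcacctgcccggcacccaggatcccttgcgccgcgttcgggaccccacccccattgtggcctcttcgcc

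In experiment 2, 6 member genes were higher in induced than in parental cells, led by DNAH17 at 12.9-fold, and no member was lower. DNAH11, DNAH1 and DNAH7 rose more than 2-fold on the linear scale, DNAH14 rose 1.75-fold and DNAH6 rose 1.36-fold. DNAH2, DNAH5 and DNAH10 did not pass the test, and DNAH8 had too few reads to be tested. The calls are edgeR quasi-likelihood tests with Benjamini-Hochberg adjusted p under 0.05, over 17945 genes. Of those genes 32.1% were called higher and 32.9% lower, so a call is common in this comparison. The members were chosen with results known, DNAH17 presumably for its rise in the same line. Nothing is therefore read from their share of 6 of 9 tested. DNAH3, an axonemal heavy chain that is no member, was lower but not called (log2 fold change -0.645 ± 0.341, edgeR adjusted p = 0.104). DNAH9 and DNAH12 were not tested there. In bulk RNA, fewer cells with a transcript and less of it per cell cannot be told apart.

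DNAH17, an outer arm chain that is needed in the sperm flagellum, had 8.79, 8.36 and 8.21 CPM in induced cells, against 0.713, 0.485 and 0.755 CPM in parental cells of experiment 2. Every induced library was far above every parental one. The log2 fold change was 3.69 ± 0.162 (SE, edgeR adjusted p = 2.55e-14). In experiment 1, DNAH17 had 12.1, 14.0 and 11.03 CPM in induced cells, against 4.17, 5.13 and 4.83 CPM in uninduced cells. The log2 fold change of 1.39 ± 0.115 is given as a description, because this rise is taken to have put the gene among the members. In that comparison 10.5% of 18978 genes were called higher and 10.4% lower, and nothing is read from these shares for the members.

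DNAH11, an outer arm chain of motile cilia that is altered in primary ciliary dyskinesia, had 14.3, 15.3 and 11.04 CPM in induced cells, against 4.35, 4.88 and 5.24 CPM in parental cells. The groups were well apart, with a log2 fold change of 1.48 ± 0.118 (edgeR adjusted p = 5.07e-10). In experiment 1 it had 32.6, 36.9 and 34.3 CPM in induced cells, against 36.6, 35.1 and 35.2 CPM in uninduced cells, and the groups overlapped (log2 fold change -0.043 ± 0.0617). DNAH5, another outer arm chain often altered in that disease, had 1.06, 0.844 and 1.04 CPM in induced cells, against 0.762, 0.552 and 0.576 CPM in parental cells. These groups did not overlap, but the test was not passed (log2 fold change 0.65 ± 0.291, edgeR adjusted p = 0.0573). The adjusted p of DNAH5 was 0.0420 without parental library 1. In experiment 1 the DNAH5 groups overlapped, with a log2 fold change of -0.12 ± 0.203. DNAH8, a chain of the sperm flagellum, had 6 to 8 reads per induced and 7 to 15 per parental library in experiment 2, and 7 to 11 per induced and 6 to 11 per uninduced library in experiment 1.

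Among inner arm chains, DNAH1 had 6.52, 5.85 and 6.37 CPM in induced cells, against 2.56, 3.00 and 2.30 CPM in parental cells. Each induced library had more than any parental one, and the log2 fold change was 1.26 ± 0.134 (edgeR adjusted p = 4.73e-08). In experiment 1 it had 15.9, 17.1 and 16.3 CPM in induced cells, against 14.5, 14.6 and 13.0 CPM in uninduced cells, groups that lay close but did not overlap (log2 fold change 0.22 ± 0.0735). DNAH7 had 2.96, 2.48 and 2.77 CPM in induced cells, against 1.18, 1.70 and 1.09 CPM in parental cells. The groups were apart, with a log2 fold change of 1.05 ± 0.202 (edgeR adjusted p = 0.000112). In experiment 1 DNAH7 had 2.36, 3.08 and 2.31 CPM in induced cells, against 3.81, 3.78 and 3.40 CPM in uninduced cells. There the induced libraries were the lower ones, with a log2 fold change of -0.51 ± 0.138. DNAH6 had 4.23, 3.80 and 3.79 CPM in induced cells, against 3.27, 2.87 and 2.58 CPM in parental cells, groups that did not overlap (log2 fold change 0.44 ± 0.145, edgeR adjusted p = 0.0108). Without parental library 3, the call for DNAH6 was lost (log2 fold change 0.36, edgeR adjusted p = 0.0552). In experiment 1 DNAH6 had 4.84, 5.79 and 4.95 CPM in induced cells, against 2.55, 3.14 and 3.12 CPM in uninduced cells, again apart, with a log2 fold change of 0.82 ± 0.124.

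The inner arm chains DNAH10 and DNAH2 were not called. In experiment 2 DNAH10 had 1.06, 1.08 and 0.880 CPM in induced cells, against 1.06, 1.30 and 0.656 CPM in parental cells (log2 fold change 0.014 ± 0.281, edgeR adjusted p = 0.968). DNAH2 had 0.346, 0.237 and 0.373 CPM in induced cells, against 0.443, 0.221 and 0.258 CPM in parental cells (log2 fold change 0.071 ± 0.429, edgeR adjusted p = 0.895). Both pairs of groups overlapped. In experiment 1 the log2 fold changes were -0.15 ± 0.196 for DNAH10 and -0.17 ± 0.228 for DNAH2, with overlapping groups.

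DNAH14, a heavy chain that has been studied less, had 106, 95.3 and 101 CPM in induced cells, against 62.0, 52.3 and 57.9 CPM in parental cells, and every induced library was the higher (log2 fold change 0.81 ± 0.0603, edgeR adjusted p = 1.58e-10). In experiment 1 it had 144, 141 and 133 CPM in induced cells, against 158, 162 and 175 CPM in uninduced cells. There every induced library was the lower, with a log2 fold change of -0.24 ± 0.0595.

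**Figure D1:**
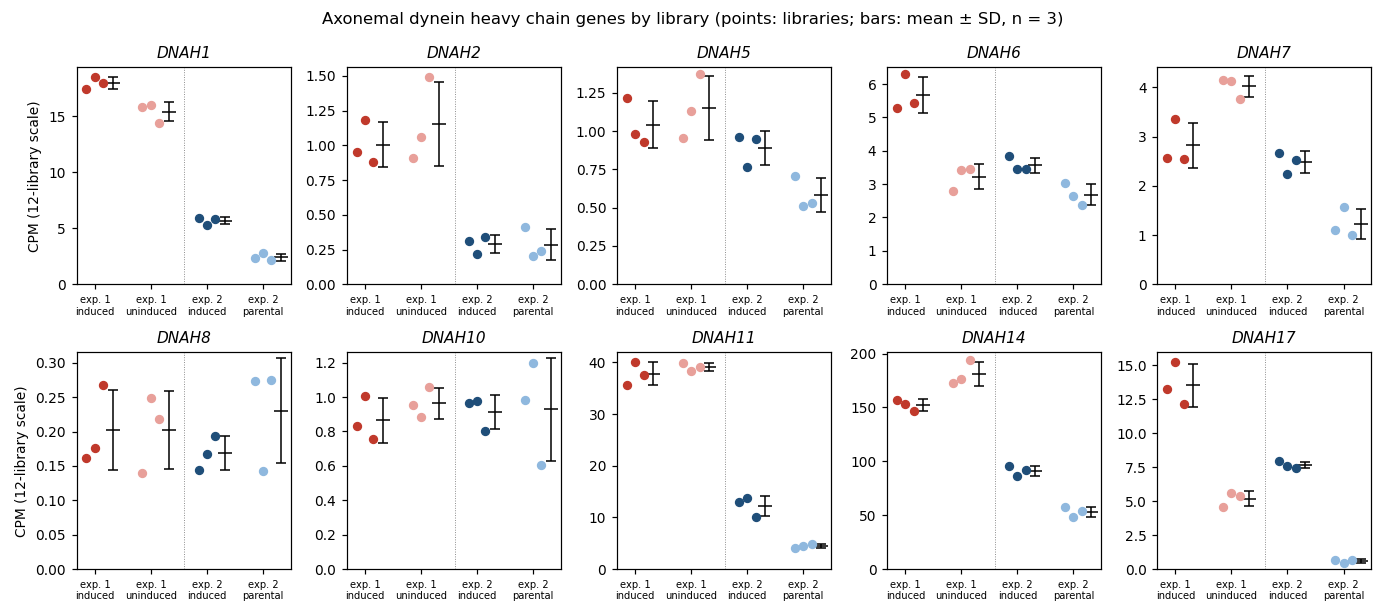
CPM of the 10 heavy chain genes in each library, scaled over all 12 libraries, with 1 panel per gene, a separate linear axis for each and 3 libraries per group (points), beside the mean and SD (bars). DNAH17 stood at 13.5 CPM in induced and 5.17 CPM in uninduced cells of experiment 1, and at 7.66 CPM in induced and 0.602 CPM in parental cells of experiment 2.

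**Figure D2:**
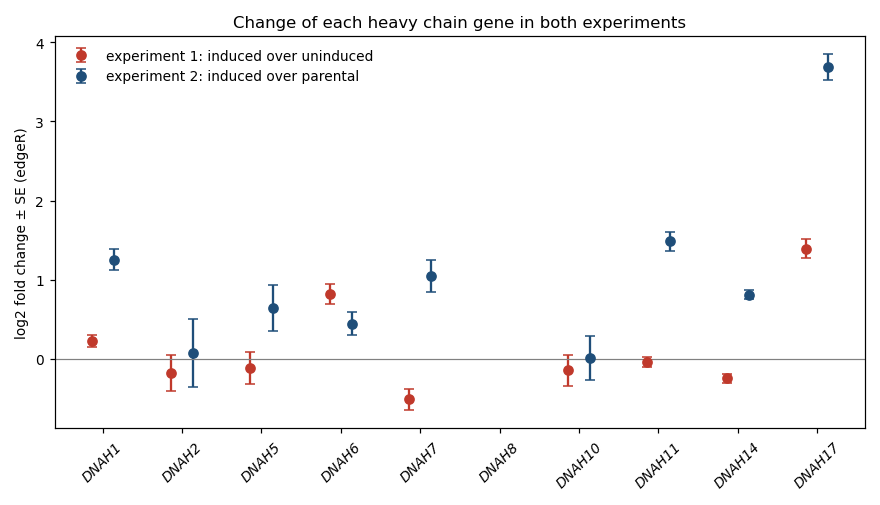
Log2 fold change (vertical axis) with its SE for each heavy chain gene, as induced over uninduced cells in experiment 1 (red) and induced over parental cells in experiment 2 (blue). DNAH17 is highest in both, DNAH7 and DNAH14 are below 0 in experiment 1 and above 0 in experiment 2, and DNAH8 has no point because it was not tested.

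On 1 scale over the 12 libraries, the order of groups differed between genes. DNAH17 averaged 13.5 ± 1.57 CPM in the induced cells of experiment 1, 7.66 ± 0.252 in the induced cells of experiment 2, 5.17 ± 0.551 in uninduced and 0.602 ± 0.135 in parental cells (SD, n = 3), and no neighbours in this order overlapped. DNAH14 followed another order, with 181 ± 11.3 CPM in uninduced cells, 152 ± 5.43 in induced cells of experiment 1, 91.3 ± 4.76 in induced cells of experiment 2 and 53.1 ± 4.71 in parental cells, none of which overlapped. DNAH1 and DNAH11 were also highest in the libraries of experiment 1, at 18.0 ± 0.566 CPM in induced and 15.4 ± 0.869 in uninduced cells for DNAH1, and at 37.8 ± 2.25 in induced and 39.1 ± 0.749 in uninduced cells for DNAH11. In experiment 2 DNAH1 averaged 5.67 ± 0.321 CPM in induced and 2.42 ± 0.321 in parental cells, and DNAH11 averaged 12.3 ± 1.98 CPM in induced and 4.46 ± 0.404 in parental cells. Only the 2 groups of experiment 1 overlapped for DNAH11, and none did for DNAH1. DNAH7 was highest in uninduced cells, and its 2 induced groups overlapped. DNAH6 was highest in the induced cells of experiment 1, while the induced cells of experiment 2 overlapped the uninduced cells and these overlapped the parental ones. DNAH5 overlapped between all groups but the parental one, and DNAH2 was apart only between the experiments. For DNAH8 and DNAH10 every neighbouring pair of groups overlapped.

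Over the 12 libraries and 17083 genes that passed the filter in both tables, the genes whose log2 CPM was most like that of DNAH17 were DHRS3 (Pearson r = 0.989), ERVK9-11 (0.986), SHROOM3 (0.984), LINC01535 (0.982) and CDK6 (0.982). For DNAH14 they were ENPP1, PREX2, ZNF277, GK and TCP11L2, each at r = 0.995. The libraries share experiment and depth, so these values describe a pattern over 4 groups and carry no p.

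Counting by strand is not stated, and reads of overlapping genes may be mixed. PGS1, which overlaps DNAH17 in the RefSeq table, averaged 24.1 ± 1.32 CPM in induced and 24.4 ± 1.31 CPM in parental cells (log2 fold change -0.013, edgeR adjusted p = 0.880). CDCA7L, which overlaps DNAH11, rose as DNAH11 did, with 130 ± 5.06 CPM in induced and 101 ± 3.63 CPM in parental cells (log2 fold change 0.36, edgeR adjusted p = 1.56e-06), a larger difference in CPM than that of DNAH11 itself, at 13.5 ± 2.22 CPM in induced and 4.82 ± 0.449 CPM in parental cells. Its part in the DNAH11 count was not tested. LBR, the lamin B receptor and the next gene after DNAH14, averaged 457 ± 6.71 CPM in induced and 275 ± 3.27 CPM in parental cells (log2 fold change 0.73, edgeR adjusted p = 5.74e-12). CNIH3, the nearest protein-coding gene before it, averaged 7.40 ± 0.472 CPM in induced and 2.55 ± 0.131 CPM in parental cells (log2 fold change 1.54, edgeR adjusted p = 5.28e-10). Both neighbours of DNAH14 were thus higher together with it in experiment 2, where 32.1% of all genes were called higher. Their part in its change was not tested. In experiment 1 LBR (log2 fold change 0.11) and CNIH3 (-0.25) were not called.

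Circular DNAH14 was almost the whole circular output of the 10 members, and circles of other axonemal heavy chains were not counted. In experiment 1 DNAH14 had 91 circRNAs with 1190 back-splice reads, rank 2 of 6754 host genes. In experiment 2 it had 65 circRNAs with 1438 reads, rank 3 of 6382. The ranks in experiment 1, of the gene and of its leading circle, are a description, because this abundance is taken to have put DNAH14 among the members. Many circles were rare: 49 of the 91 and 21 of the 65 had a single read. Circles that begin at exon 2 held 85.9% of its reads in experiment 1 and 88.2% in experiment 2, and the 3 most abundant circles held 80.1% and 81.4%. The leading circle joined exon 8 back to exon 2, at chr1:225140372-225161855 (GRCh37, plus strand, exons 2 to 8 of ENST00000430092, 863 spliced nucleotides), with rank 3 among all circRNAs in experiment 1 and rank 4 in experiment 2. The next reached to exon 10 (chr1:225140372-225195246, 1140 nucleotides) and to exon 7 (chr1:225140372-225156576). All 3 start at the same splice site, which follows an intron of 22834 bases.

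**Figure D3:**
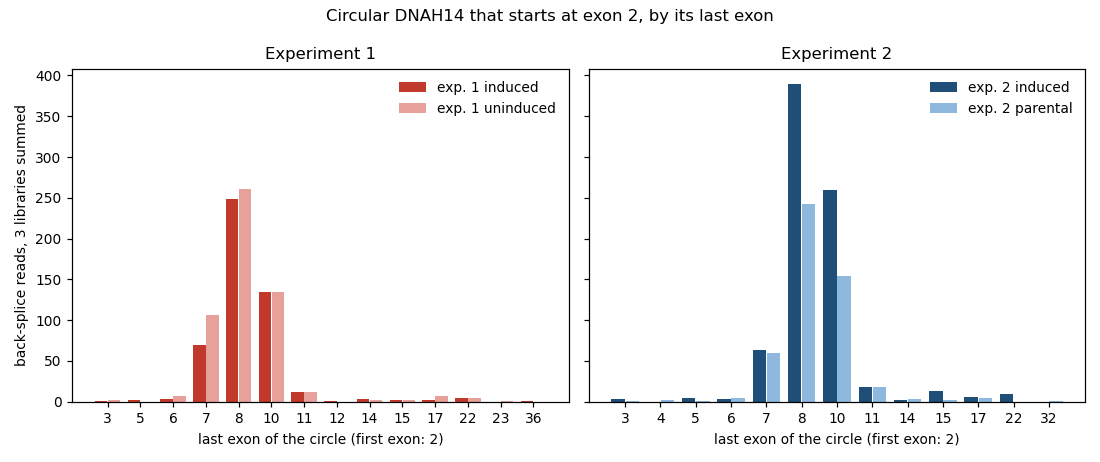
Back-splice reads summed over 3 libraries (vertical axis) of the DNAH14 circles that start at exon 2, by the number of their last exon, in induced and uninduced cells (left) and in induced and parental cells (right). Exons 8, 10 and 7 are the main ends in both experiments, with 248 reads in induced and 261 in uninduced cells for exon 8, and 389 in induced and 243 in parental cells.

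In experiment 2 the sum of circular DNAH14 was higher in induced cells, with 321, 285 and 286 back-splice reads, against 186, 167 and 193 reads in parental cells. Every induced library had more than every parental one, although the parental libraries had more gene reads. The log2 fold change of the sum was 0.97 ± 0.160 (SE, edgeR adjusted p = 3.53e-07), where 54 of 2564 hosts (2.11%) were called. The circle of exons 2 to 8 had 145, 126 and 118 reads in induced cells, against 91, 75 and 77 in parental cells (log2 fold change 0.93 ± 0.199, edgeR adjusted p = 0.000447). The circle of exons 2 to 10 had 92, 83 and 85 reads in induced cells, against 52, 36 and 66 in parental cells (log2 fold change 1.03 ± 0.237, edgeR adjusted p = 0.00172). Neither pair of groups overlapped, and 40 of 2381 circRNAs (1.68%) were called in this comparison. Without induced library 1, edgeR's adjusted p was 0.0560 for each of these 2 circles. The circle of exons 2 to 7 had 23, 21 and 20 reads in induced cells, against 14, 24 and 22 in parental cells, and the groups overlapped (log2 fold change 0.37 ± 0.408, edgeR adjusted p = 0.831).

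The other 8 DNAH14 circles tested in experiment 2 had 10 to 36 reads each and were not called. Those of exons 24 to 33 and of exons 2 to 22 had 11 and 10 reads in induced cells and no read in parental cells, with edgeR adjusted p = 0.158 and 0.187. Both passed the read filter through the induced libraries alone, so nothing is read from this pattern. In experiment 1 the circle of exons 24 to 33 had 5 reads in induced and 1 in uninduced cells. That of exons 2 to 22 had 4 in induced and 4 in uninduced cells, and neither was tested there. In experiment 1, 7 DNAH14 circles were tested and none was called, like none of the 1701 circRNAs tested (0%, with 77 at an unadjusted p under 0.05 and 0 calls by DESeq2). The circle of exons 2 to 8 had 93, 77 and 78 reads in induced cells, against 91, 93 and 77 in uninduced cells, and the groups overlapped (log2 fold change -0.20 ± 0.234, edgeR adjusted p = 0.965). The circle of exons 2 to 7 had 28, 20 and 22 reads in induced cells, against 34, 39 and 33 in uninduced cells. These groups did not overlap, with a log2 fold change of -0.72 ± 0.299 and an unadjusted p of 0.0157 (edgeR adjusted p = 0.965). The sum over DNAH14 was 216, 177 and 177 reads in induced cells, against 214, 213 and 193 in uninduced cells (log2 fold change -0.25 ± 0.225, edgeR adjusted p = 0.976), and no host of 2207 was called (0%, with 84 at an unadjusted p under 0.05).

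Set against the reads of the host gene, the circles of DNAH14 were not shown to change. Against all reads of the gene, the circle of exons 2 to 8 had a log2 fold change of 0.13 ± 0.572 in experiment 2 (edgeR adjusted p = 0.971), where 2 of 2290 circRNAs (0.0873%) were called. In experiment 1 no circRNA of 1640 was called against its host (0%, with 76 at an unadjusted p under 0.05 and 0 calls by limma-voom). Per 1000 gene reads, DNAH14 gave 80.7, 78.8 and 75.5 back-splice reads in induced cells, against 73.7, 70.5 and 66.2 in parental cells. The groups were apart by little, and the log2 difference of 0.16 ± 0.0533 (SE) had an exact permutation p of 0.1, the smallest that 3 against 3 libraries allow (two-sided). In experiment 1 the ratio was 27.9, 29.2 and 29.5 in induced cells, against 28.8, 27.2 and 31.0 in uninduced cells, with overlapping groups (exact permutation p = 1). This ratio was compared over 2117 hosts in experiment 1 and 2472 in experiment 2, a part of all hosts. Their median was 1.65 back-splice reads per 1000 gene reads in experiment 1 and 1.70 in experiment 2. Of these hosts, 1.09% and 0.688% had a higher ratio than DNAH14. The place of DNAH14 in experiment 1 is a description, because the gene is taken to have been picked for its circular abundance there.

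Of the shares of the 3 main circles, that of the circle ending at exon 7 did not overlap between groups. It took 13.0, 11.3 and 12.4% of DNAH14 back-splice reads in induced cells, against 15.9, 18.3 and 17.1% in uninduced cells. In experiment 2 it took 7.17, 7.37 and 6.99% in induced cells, against 7.53, 14.4 and 11.4% in parental cells. In both experiments each induced library had the lower share, though parental library 1 lay just above the induced ones, and the exact permutation p was 0.1 in each, the smallest possible. Set against the leading circle instead, the log2 ratio of the exon 7 circle averaged -1.83 ± 0.107 in induced and -1.30 ± 0.106 in uninduced cells, without overlap (exact permutation p = 0.1), but -2.60 ± 0.0497 in induced and -2.05 ± 0.569 in parental cells, where the groups overlapped (exact permutation p = 0.4). The shares of the circles ending at exons 8 and 10 overlapped between groups in both experiments.

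**Figure D4:**
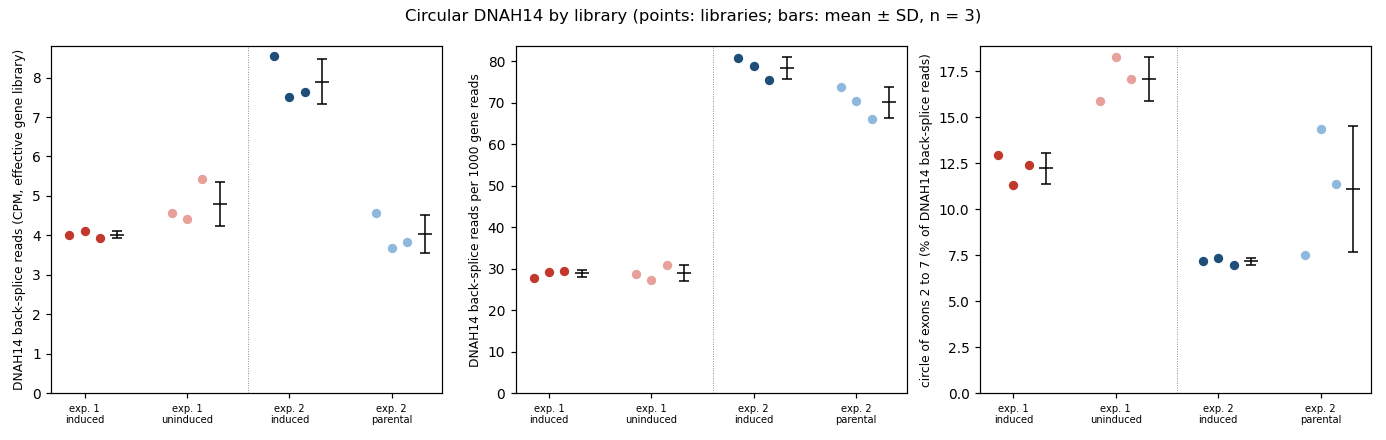
Circular DNAH14 in each library (points, with mean and SD as bars): back-splice CPM (left), back-splice reads per 1000 gene reads (middle) and the share of the circle of exons 2 to 7 in percent (right). Per 1000 gene reads the means were 28.9 in induced and 29.0 in uninduced cells of experiment 1, and 78.4 in induced and 70.1 in parental cells of experiment 2.

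The other members gave few circles. DNAH11 had 12 back-splice reads over the induced and 8 over the uninduced libraries of experiment 1 (log2 fold change 0.45 ± 0.732, edgeR adjusted p = 0.976), and 3 over the induced and 3 over the parental libraries of experiment 2. DNAH6 had 4 in induced and 1 in parental cells, and DNAH5 had 3 in induced and 0 in parental cells. DNAH17 had 1 back-splice read in experiment 1 and none in experiment 2, and the rest had 0 to 2 reads in either experiment. The sequence over the circular junction is not printed here.

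Over 5 pooled lists of genes related to dyneins, the axoneme and motile ciliogenesis, more were called lower than higher in experiment 2, but not in every list. Over 80 genes of 5 lists (other dynein heavy chains, smaller axonemal dynein chains, assembly factors, other axoneme structure and regulators of motile ciliogenesis), 59 were tested in experiment 2, of which 14 were called higher (23.7%, against 32.1% of all genes tested) and 26 lower (44.1%, against 32.9%). Their median log2 fold change was -0.30, beside -0.0091 over all genes. In experiment 1, 61 were tested, 4 were called higher (6.56%, against 10.5% of all genes) and 8 lower (13.1%, against 10.4%), with a median of -0.057 beside 0.0026 over all genes. The counts in experiment 1 did not hold: they were 3 higher and 2 lower without induced library 1 or induced library 3, 4 higher and 2 lower without uninduced library 1, 3 higher and 3 lower without uninduced library 2, 3 higher and 4 lower without induced library 2, 7 higher and 8 lower without uninduced library 3, 6 higher and 5 lower by DESeq2, and 3 higher and 2 lower with the replicate number as a block.

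Of the other heavy chains, 1 of 4 tested rose in experiment 2 and 1 fell, with a list median of -0.39. For this and the next lists, the shares over all genes are 32.1% higher and 32.9% lower. DYNC1H1, the cytoplasmic dynein heavy chain, averaged 845 ± 13.2 CPM in induced and 673 ± 77.8 CPM in parental cells (log2 fold change 0.33, edgeR adjusted p = 8.59e-05). DYNC2H1, the motor of retrograde transport in cilia, averaged 173 ± 16.3 CPM in induced and 251 ± 14.7 CPM in parental cells (log2 fold change -0.53, edgeR adjusted p = 9.74e-08). Of 8 tested smaller chains, 2 rose and 1 fell (list median 0.088): the intermediate chains DNAI4 (log2 fold change 0.72, edgeR adjusted p = 0.00123) and DNAI3 (0.57, adjusted p = 0.00433) rose and the light intermediate chain DNALI1 fell by 1.12 (edgeR adjusted p = 0.0163). Without parental library 3 the adjusted p of DNALI1 was 0.143.

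Of 16 tested assembly factors, 3 rose and 10 fell (list median -0.37), beside 32.1% and 32.9% of all genes. The largest falls were in LRRC6 (log2 fold change -2.13, edgeR adjusted p = 2.97e-05), DNAAF3 (-1.86, adjusted p = 1.27e-08) and ZMYND10 (-0.80, adjusted p = 0.00489), all needed for dynein arms in cilia. C11orf70 (1.02, adjusted p = 4.35e-05), SPAG1 (0.39) and HEATR2 (0.26) were the 3 that rose. LRRC6 averaged 0.256 ± 0.144 CPM in induced and 1.13 ± 0.168 CPM in parental cells. Of 21 tested genes of axoneme structure, 3 rose and 11 fell (list median -0.40). CFAP46, of the central pair, averaged 0.0531 ± 0.0267 CPM in induced and 1.11 ± 0.0198 CPM in parental cells and fell by 4.31 on the log2 scale (edgeR adjusted p = 3.38e-08). It had 6 reads over the induced and 151 over the parental libraries, so it passed the filter through the parental group and the size of the fall is uncertain. In experiment 1 it had 5 reads over the induced and 3 over the uninduced libraries and was not tested. LRRC48 (-1.96, adjusted p = 6.64e-08) and CFAP74 (-1.45, adjusted p = 0.0110) also fell, and the 3 that rose were RSPH3 (0.69), ARMC4 (0.67) and SPAG16 (0.43). CFAP74 had 16 reads over the induced and 53 over the parental libraries. Its call was lost without induced library 2 (edgeR adjusted p = 0.0680) or parental library 1 (0.0511).

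Of 10 tested regulators, 5 rose and 3 fell (list median 0.41), beside 32.1% and 32.9% of all genes, so that the count of falls is near the background. MYB, which acts early in multiciliated cells, averaged 16.8 ± 1.51 CPM in induced and 4.82 ± 0.557 CPM in parental cells (log2 fold change 1.79, edgeR adjusted p = 2.6e-12). MCIDAS, which starts the multiciliated programme, averaged 8.77 ± 0.741 CPM in induced and 3.82 ± 0.328 CPM in parental cells (1.20, adjusted p = 7.76e-09), and FOXN4, known from frog as a further factor of that programme, rose by 0.89 (adjusted p = 2.62e-05). RFX2, a factor that binds the X-box, averaged 3.19 ± 0.299 CPM in induced and 10.8 ± 0.571 CPM in parental cells (-1.75, adjusted p = 1.15e-11). RFX3, another X-box factor, named after its value was seen, went the other way, with 9.84 ± 0.314 CPM in induced and 5.62 ± 0.494 CPM in parental cells (0.81, edgeR adjusted p = 4.35e-07). E2F5 (-0.99) and E2F4 (-0.20), partners of MCIDAS, also fell.

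In experiment 1 fewer list genes were called, and of the 10 named by the same rule 4 stayed called in every alternative run. These were the axoneme protein CFAP44, at 12.7 ± 0.819 CPM in induced and 7.22 ± 0.603 CPM in uninduced cells (log2 fold change 0.82, edgeR adjusted p = 0.000776), TP73 (0.49, adjusted p = 0.00366), MYB (-0.41, adjusted p = 0.00313) and the chaperone component RUVBL1 (0.36, adjusted p = 0.00275). The other 6, whose calls were lost in at least 1 alternative, were DNHD1 (0.31), DNAAF1 (-1.29), C11orf70 (-0.46), CFAP221 (-1.14), CCDC65 (-0.96) and SPAG16 (-0.31).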

How the data were processed

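Whole-number gene counts and back-splice read counts for each experiment were deposited by the authors without normalization. STAR 2.5.2b and the builds GRCh37 and hg19 are named, without a role, per the submitters' processing notes, and the caller of circRNAs and the strand setting are not given in the sources used here. Paired-end libraries came from a TruSeq RNA preparation, per the labels' protocols. Symbols named 8 members, and DNAH2 and DNAH11, which had none, were matched by gene identifier. The members, lists and the rule for named genes (all members, their tested circRNAs, and per list the 3 called genes with the largest rise and the 3 with the largest fall) were chosen with earlier results of these data known.

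Genes were kept by filterByExpr (a CPM equal to about 10 reads in at least 3 libraries, and 15 reads in all). They were scaled by TMM and tested with the quasi-likelihood test of edgeR 4.0.16 in R 4.3.3, each experiment alone and two-sided. Benjamini-Hochberg adjustment ran over all features, with a call at adjusted p under 0.05. CPM uses effective library sizes, and log2 CPM a prior count of 2. circRNAs with 10 reads over 6 libraries and a read in at least 3 were tested on the library sizes of the gene table. A second model, with library as a block, tested each circRNA against its host, and summed reads per host were tested like circRNAs. Ratios per library were compared by two-sided exact permutation. RefSeq tables of GRCh38.p14 gave neighbours and promoter windows. The fits were tested on simulated data. Alternatives used DESeq2 1.42.0, limma 3.58.1, other filters and library sizes, and each library left out in turn. No clear pairing by replicate number was seen, and the main fits did not pair the samples.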

Additional observations from a re-analysis of the deposited data

Results flagged for a closer look

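DNAH7 and DNAH14 moved in opposite directions in the 2 experiments, with every induced library on one side in experiment 1 and on the other side in experiment 2. DNAH7 had a log2 fold change of -0.51 in experiment 1 (induced over uninduced) and 1.05 in experiment 2 (induced over parental). The DNAH14 gene had -0.24 in experiment 1 and 0.81 in experiment 2. Its back-splice CPM had the same signs, with a log2 difference between group means of -0.25 in experiment 1 and 0.97 in experiment 2. Summed circular DNAH14 was not called in experiment 1 (edgeR adjusted p = 0.976) and was called in experiment 2. The difference between the experiments was not tested. The induced cells come from the same line in both, but the controls do not: uninduced cells of that line in experiment 1 and parental HEK293 cells in experiment 2.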

How the results depend on the processing

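In experiment 2 the calls for DNAH1, DNAH7, DNAH11, DNAH14 and DNAH17 and for summed circular DNAH14 held under every alternative run; the number of members called higher ranged from 5 to 7. For all genes in experiment 1, the number called was 3971, 2327 in a fit blocked on the replicate number, and 1581 to 5231 with each library left out. No clear pairing by replicate number was seen, with correlations of same-numbered deviations from -0.110 to 0.194 in experiment 1 and from -0.0162 to 0.0296 in experiment 2. With 3 libraries per group this check cannot decide whether the samples were paired. With 1 library left out in experiment 2, 14 to 41 circRNAs (40 in all libraries), 0 to 2 circRNAs against host (2) and 28 to 45 hosts (54) were called. The induced minus uninduced difference in the log2 ratio of circular to gene reads of DNAH14 in experiment 1, -0.0064, became 0.046 with the leading circle alone and ranged from -0.051 to 0.043 with a library left out. Changes of sign occurred only in values that were not called. With a library left out, log2 fold changes ranged from -0.12 to 0.41 for DNAH2 and from -0.23 to 0.25 for DNAH10 in experiment 2, and from -0.32 to 0.025 for DNAH2 and from -0.25 to 0.011 for DNAH5 in experiment 1. For circles they ranged from -0.24 to 0.031 (exons 2 to 10, experiment 1), from -0.39 to 0.41 and from -0.26 to 0.77 (exons 2 to 11, experiments 1 and 2), and from -0.85 to 1.95 (exons 24 to 25, experiment 2). Against host they ranged from -0.13 to 0.61 (exons 2 to 11, experiment 1), from -1.53 to 1.16 (exons 24 to 25) and from -0.46 to 0.74 (exons 29 to 33, with -0.23 by limma-voom). The cause of these shifts was not tested. Depth limits the circles under about 10 reads and DNAH8, and 3 libraries per group limit the ratios to an exact p of 0.1.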

Other observations

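Some genes next to other members also moved in experiment 2, where 32.1% of all genes were called higher and 32.9% lower. Others were not called, such as GLYCTK next to DNAH1 and KDM6B next to DNAH2 (edgeR adjusted p = 0.838 and 0.884). RAPGEF5, next to DNAH11, averaged 19.2 ± 1.88 CPM in induced and 9.56 ± 1.13 CPM in parental cells (log2 fold change 1.00, edgeR adjusted p = 9.67e-09, n = 3 each). CCDC92, which overlaps DNAH10, averaged 18.0 ± 1.62 CPM in induced and 10.95 ± 0.718 CPM in parental cells (0.71, adjusted p = 3.81e-07), while DNAH10 itself was not called. DNAH10OS, which also overlaps DNAH10, was called higher in experiment 2 (0.70, edgeR adjusted p = 0.0239) and lower in experiment 1 (-0.60, edgeR adjusted p = 0.00705). TRABD2A, next to DNAH6, averaged 1.48 ± 0.0698 CPM in induced and 4.19 ± 0.220 CPM in parental cells (-1.50, adjusted p = 3.36e-08).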
